A study of Rattus norvegicus with 24 samples.

Results

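MHC antigen presentation genes were examined in the retina of diabetic and control rats. The genes asked for were 8, namely Cd74, Tap1, Tap2, B2m, Psmb8, Psmb9, RT1-Da and RT1-Ba. A probe was taken for a gene when the RefSeq accession given for it on the array belonged to that gene. In this way 6 probes of 5 genes were found, among 4675 probes of 4013 genes that received a symbol. The class I pathway was represented by Tap1, Tap2, Psmb8 and Psmb9 and the class II pathway by Cd74. B2m, RT1-Da and RT1-Ba had no probe matched through an accession and are not analysed here.

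Male Sprague Dawley rats were made diabetic by 1 injection of streptozotocin (STZ), a toxin for the beta cells of the pancreatic islets, while controls were given the citrate vehicle. The rats received no insulin, and their ages are not given in the sources used here. Retinas were taken at 1 month and 3 months, each time point with its own controls, giving the groups 1M Control, 1M STZ, 3M Control and 3M STZ with 6 arrays each. Every array was hybridized with RNA labelled from whole retina, so the neurons, glia, vessels and immune cells of the tissue were measured together.

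Cells show fragments of their own proteins to CD8 T cells on MHC class I molecules, which pair a heavy chain with the light chain B2m. Psmb8 and Psmb9 are catalytic subunits of the immunoproteasome, which cuts proteins into such fragments, and Tap1 and Tap2 form the transporter that carries the fragments into the endoplasmic reticulum. MHC class II molecules, of which RT1-Da and RT1-Ba are alpha chains in the rat, show fragments of ingested proteins to CD4 T cells, and Cd74, the invariant chain, guides them to the endosome. Interferon gamma is a known inducer of both pathways, and in the healthy retina class II molecules are found mainly on microglia and other resident myeloid cells.

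In the GRCr8 assembly of the rat genome Tap2, Psmb8, Tap1 and Psmb9 follow each other on chromosome 20, and Tap1 and Psmb9 start next to each other in opposite directions, so that their upstream windows overlap. The 250 bases upstream of the annotated start of these 4 genes are shown because these neighbours are the 4 class I members with a probe. The sequences are from RefSeq, written 5′ to 3′ on the strand of the gene. Capitals mark matches, on either strand, to the interferon-stimulated response element ISRE (a pair of GAAA repeats with 2 bases between them), the gamma-activated site GAS (TTCNNNGAA) and the Y box (ATTGG), and no matches overlapped. The windows lie at chr20:4652297-4652546 (minus strand) for Tap2, chr20:4657032-4657281 (minus strand) for Psmb8, chr20:4668544-4668793 (minus strand) for Tap1 and chr20:4668750-4668999 (plus strand) for Psmb9.
Tap2: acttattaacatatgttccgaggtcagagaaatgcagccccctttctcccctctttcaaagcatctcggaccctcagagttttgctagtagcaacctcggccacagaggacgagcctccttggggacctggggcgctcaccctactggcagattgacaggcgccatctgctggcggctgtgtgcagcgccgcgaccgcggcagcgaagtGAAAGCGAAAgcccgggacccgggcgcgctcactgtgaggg
Psmb8: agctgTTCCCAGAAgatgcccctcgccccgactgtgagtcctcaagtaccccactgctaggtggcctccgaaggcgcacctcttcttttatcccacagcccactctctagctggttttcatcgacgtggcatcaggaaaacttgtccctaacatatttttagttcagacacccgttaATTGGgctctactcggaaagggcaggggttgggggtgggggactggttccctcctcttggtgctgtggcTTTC
Tap1: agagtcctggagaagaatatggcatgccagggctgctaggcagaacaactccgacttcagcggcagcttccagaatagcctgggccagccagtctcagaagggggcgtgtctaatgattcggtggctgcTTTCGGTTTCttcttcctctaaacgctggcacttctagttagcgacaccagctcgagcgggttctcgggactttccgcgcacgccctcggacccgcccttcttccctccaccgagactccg
Psmb9: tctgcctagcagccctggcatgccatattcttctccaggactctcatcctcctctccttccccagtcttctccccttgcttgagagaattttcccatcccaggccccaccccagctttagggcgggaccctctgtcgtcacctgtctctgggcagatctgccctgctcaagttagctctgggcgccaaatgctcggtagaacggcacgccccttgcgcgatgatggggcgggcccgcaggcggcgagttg

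The motifs were searched in windows of 300 bases that also took in the first 50 bases after the start. An ISRE match stood in 4 of the 8 genes, in Tap2 at -41 to -32, in Tap1 at -121 to -112, in B2m at -150 to -141 and in Psmb8 across the start at -4 to 6, of which only the first bases are in capitals above. Of the 33469 windows of this length in the table, 3.92% held an ISRE match. A GAS match was found in Psmb8 alone among the 8 genes, at -245 to -237, and 8.87% of all windows held one. The Y box, a short element of MHC promoters, is common, with a match in 37.5% of all windows. It was found in RT1-Da at -49 to -45, RT1-Ba at -43 to -39, B2m at -64 to -60, Psmb8 at -73 to -69, Psmb9 at 23 to 27 and Cd74 at -189 to -185. These are matches of letters and were not measured as binding sites.

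**Figure D1:**
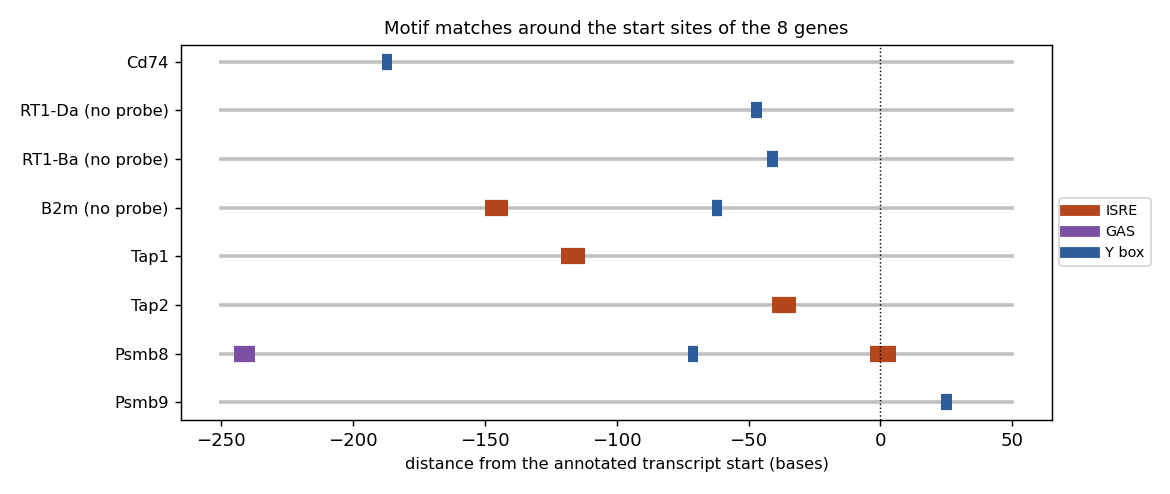
Positions of motif matches around the annotated starts of the 8 genes, with distance from the start in bases on the horizontal axis and 1 line per gene. ISRE matches stand in Tap1, Tap2, B2m and Psmb8, while Cd74, RT1-Da, RT1-Ba and Psmb9 hold a Y box match only.

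A value below is the deposited normalized intensity, for which the median of an array is about 1. It has no physical unit and can be compared between arrays for 1 probe, but not between probes. Fold changes come from the background-subtracted intensity after division by the median rat probe of the array, as differences of log2 values. A probe was tested in limma, in 1 model of the 4 groups, when its median scaled intensity exceeded 0.554 (35th percentile over the array). It was called when its Benjamini-Hochberg adjusted p over the 22025 tested probes was under 0.05 and the difference at least 1.2-fold. The Cd74, Psmb8 and Psmb9 probes and 1 of the 2 Tap2 probes passed the limit, and the Tap1 probe (median 0.548) and the second Tap2 probe (0.429) did not and are given as values.

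The arrays of the 2 time points differed in background, and this bears on all dim probes. The median of the 62 probes for bacterial genes, which have no target in the rat, lay between 0.0589 and 0.137 on the 1 month arrays and between 0.447 and 0.75 on the 3 month arrays on the scaled intensity. Their 95th percentile was 0.632 to 1.18 at 1 month and 1.16 to 1.72 at 3 months. Levels were therefore compared between STZ and control within a time point only. Within 3 months the bacterial median tended lower in 3M STZ (0.447 to 0.680) than in 3M Control (0.586 to 0.750). The group median of the 95th percentile went the other way, with 1.41 in 3M STZ and 1.27 in 3M Control. Background was thus not equal between these groups, and its part in the differences of dim probes was not tested. The array 3M Control 2 stood apart, with a median correlation of 0.842 with its group. The tested probes as a whole moved, their median log2 fold change being 0.44 at 3 months and 0.01 at 1 month.

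At 3 months Cd74, Psmb8 and Psmb9 were higher in STZ retinas and no member was called lower. The measured differences were 2.57-fold for Cd74, 1.89-fold for Psmb8 and 1.43-fold for Psmb9, against 3M Control groups in which only 3, 1 and 1 of 6 arrays had the probe above the bacterial 95th percentile. This was 3 of 4 tested members, where 50.5% of all tested probes were called higher and 3.55% lower. Cd74 lay at the 99.0 percentile of all 3 month log2 fold changes and Psmb8 at the 93.5 percentile, Psmb9 at the 58.1 percentile and Tap2 at the 0.54 percentile. At 1 month none of the 4 tested members was called by limma at the adjusted p, and 0.00908% of all tested probes were, in either direction. None of the 4 reached an unadjusted p under 0.05 either, and the smallest was 0.352, for Tap2.

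Cd74, the invariant chain of class II, had the largest difference among the members. Its normalized intensity in the 3M Control arrays was 0.824 at the lowest, 1.36 at the median and 1.60 at the highest, and in the 3M STZ arrays it was 2.19, 2.96 and 5.33. The 6 STZ arrays all lay above the 6 control arrays, which was so for 9.49% of all tested probes. The log2 fold change was 1.36 (SE 0.22, 95% interval 0.91 to 1.81, n = 6 and 6 arrays, limma adjusted p = 0.000127). It exceeded the median of all tested probes by 0.92. The probe was above the bacterial 95th percentile of its array on 3 of 6 3M Control and 6 of 6 3M STZ arrays. In whole retina, more cells that carry a transcript and more transcript per cell cannot be told apart.

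At 1 month the same probe gave 0.534, 0.801 and 1.33 (lowest, median and highest) in the control arrays and 0.633, 0.751 and 1.21 in the STZ arrays. The groups overlapped, and the 95% interval of the log2 fold change was -0.45 to 0.45, centred close to zero. The change at 3 months was larger than that at 1 month by 1.36 on the log2 scale (95% interval 0.73 to 2.00, limma interaction, adjusted p = 0.0171). It was the only member past the threshold of this test, which 14.8% of all tested probes passed in the same direction. This call was lost when arrays were centred on the tested probes and when array spread was a covariate.

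Psmb8, the immunoproteasome subunit also called LMP7, was measured in the 3M Control arrays at 0.692, 1.10 and 1.33 (lowest, median and highest). In the 3M STZ arrays it was 1.05, 2.21 and 2.50. All STZ arrays but 3M STZ 4, which was the lowest at 1.05, lay above the highest control. The log2 fold change was 0.92 (SE 0.22, 95% interval 0.48 to 1.37, limma adjusted p = 0.00187), which is 0.48 above the median of all tested probes. It was above the bacterial 95th percentile on 1 control and 5 STZ arrays at 3 months. At 1 month the control arrays ranged from 1.17 to 2.39 (median 1.56) and the STZ arrays from 1.17 to 2.16 (median 1.81), with full overlap and a log2 fold change of 0.07 (95% interval -0.38 to 0.52). The change at 3 months exceeded that at 1 month by 0.85, with an adjusted p of 0.0556 in limma.

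Psmb9, the subunit also called LMP2, moved less. In the 3M Control arrays its normalized intensity was 0.841, 1.04 and 1.24 and in the 3M STZ arrays 1.09, 1.47 and 1.86. Here too 5 of the 6 STZ arrays lay above the highest control and 3M STZ 4 was the lowest. The probe was above the bacterial 95th percentile on 1 of 6 3M Control and 3 of 6 3M STZ arrays. The log2 fold change was 0.51 (SE 0.18, 95% interval 0.15 to 0.88, limma adjusted p = 0.0178). It was 0.07 above the median of all tested probes, and with the arrays centred on the tested probes it was 0.14 and no longer called (adjusted p = 0.566). At 1 month the control arrays gave 0.773, 0.862 and 1.12 and the STZ arrays 0.450, 0.947 and 1.07, with a log2 fold change of -0.06 (95% interval -0.43 to 0.30). The difference between the effects at 3 and 1 months was 0.58 (limma adjusted p = 0.0892).

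Neither transporter gene gave a called change. The tested Tap2 probe gave 0.517, 0.926 and 3.11 in the 3M Control arrays and 0.353, 0.584 and 0.994 in the 3M STZ arrays. The groups overlapped, and the control value of 3.11 was that of 3M Control 2. The log2 fold change was -0.80 (SE 0.37, 95% interval -1.57 to -0.04, limma adjusted p = 0.0673), and it was -0.48 without 3M Control 2 (adjusted p = 0.252). At 1 month the STZ arrays (0.291, 0.489 and 0.760) had a higher median than the controls (0.206, 0.298 and 0.932), with a log2 fold change of 0.35 (95% interval -0.41 to 1.11).

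The second Tap2 probe ran the other way at 3 months, from 0.187, 0.400 and 0.644 in controls to 0.416, 0.547 and 0.697 in STZ arrays. On this probe all 6 STZ arrays were above the control median, while on the tested probe 5 of 6 were below it, so the 2 probes disagreed on direction. The second probe was below the bacterial 95th percentile on all 24 arrays and the tested probe on all but 2, which leaves the direction of Tap2 unsettled. At 1 month the second probe was 0.288, 0.313 and 0.750 in controls and 0.322, 0.446 and 0.541 in STZ arrays.

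Tap1 was at 0.727, 0.870 and 2.64 in the 3M Control arrays and at 0.655, 0.817 and 0.877 in the 3M STZ arrays, and its highest control was again 3M Control 2. The mean difference of log2 values was -0.37, and -0.10 without that array. At 1 month Tap1 was at 0.299, 0.377 and 0.416 in controls and 0.322, 0.398 and 0.436 in STZ arrays. Its level exceeded the bacterial 95th percentile on 3M Control 2 and on no other of the 24 arrays, so a change in Tap1 was not measurable on these arrays.

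**Figure D2:**
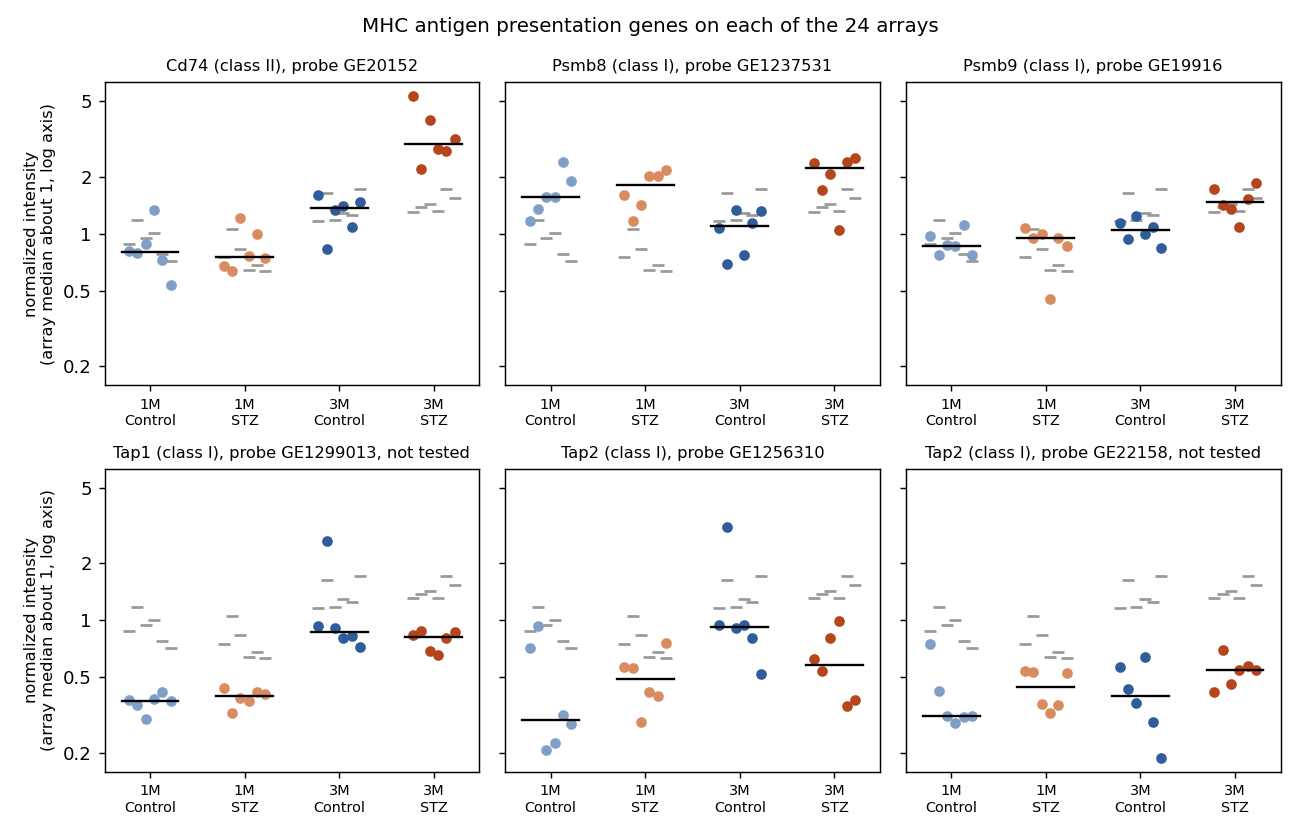
Normalized intensity (log axis, array median about 1) of the 6 probes on each of the 24 arrays, with a black line at the group median and a grey dash at the bacterial 95th percentile of the same array. Cd74 in 3M STZ lies above all 3M Control arrays, Psmb8 and Psmb9 overlap by 3M STZ 4, and the high Tap1 and Tap2 points in 3M Control are both 3M Control 2.

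The order of the group medians was read only within a month. Cd74, Psmb8 and Psmb9 were all higher in STZ at 3 months, while at 1 month Psmb8 and Psmb9 had a slightly higher and Cd74 a slightly lower median in STZ, by less than the spread of the arrays. The median log2 fold change of the 3 tested class I members was 0.51 at 3 months and that of Cd74, the single class II member, 1.36.

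The members were set beside the rest of their pathways. In the class I list 9 of 25 genes were on the array, 8 were tested and 6 were called higher at 3 months (50.5% of all tested probes were), with none lower and a median log2 fold change of 0.55, against 0.44 over every tested probe. Psme1 and Psme2, the subunits of the PA28 activator that opens the proteasome, rose by 1.06 and 0.90 on the log2 scale (limma adjusted p = 0.00045 and 0.000714). Psme1 had a 3M Control range of 3.61 to 12.4 and a 3M STZ range of 11.6 to 19.8, with 5 of 6 STZ arrays above all controls. Psme2 had a median of 5.83 in controls and 11.2 in STZ arrays, and 5 of 6 STZ arrays were above all controls. Both exceeded the bacterial 95th percentile on every 3 month array.

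Chaperones that help load class I molecules in the endoplasmic reticulum did not all move. Pdia3 rose by 0.59 (adjusted p = 0.0127) and Canx, calnexin, by 0.45 (adjusted p = 0.0383) in limma, while Calr, calreticulin, differed by -0.10 (adjusted p = 0.683) and by 0.14 without 3M Control 2. Canx was under the bacterial 95th percentile on all 12 arrays of 3 months, and was not called without 3M Control 2. Neither Canx nor Pdia3 was called when arrays were centred on the tested probes, and Pdia3 was at 0.02 after quantile normalization (adjusted p = 0.95). Psme1, Psme2 and Pdia3 had a more positive effect at 3 months than at 1 month (limma interaction, 0.82, 0.89 and 0.95, with adjusted p of 0.0495, 0.0314 and 0.0295).

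The immunoproteasome subunits were compared with the constitutive proteasome, whose 17 genes on the array were all tested. Of these 13 rose at 3 months, beside 50.5% of all tested probes, and none fell, with a median log2 fold change of 0.67, from Psmb4 at 0.22 to Psma1 at 0.83. The 0.92 of Psmb8 lay above all 17 and the 0.51 of Psmb9 below their median. No difference between Psmb8 or Psmb9 and the constitutive subunits was tested. After quantile normalization none of the 17 was called and their median was 0.01, while Psmb8, Psmb9, Psme1 and Psme2 were still called. With arrays centred on the tested probes 3 of the 17 (Psma1, Psmc1 and Psmd4) were called, with Psmb8, Psme1 and Psme2 but not Psmb9.

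In the class II list 12 of 23 genes were on the array, 10 were tested, 6 were called higher and 1 lower at 3 months, and the median was 0.49. These are close to the 50.5% called higher and the median of 0.44 over all tested probes. RT1-DMa and RT1-DMb form the DM molecule, which exchanges the Cd74 fragment in the class II groove for peptide. RT1-DMa rose by 0.67 (limma adjusted p = 0.00486) and RT1-DMb by 0.56 (adjusted p = 0.00196). RT1-DMb was 0.737, 0.790 and 0.988 in 3M Control and 1.01, 1.21 and 1.42 in 3M STZ, so the groups did not overlap. Both lay under the bacterial 95th percentile on all 3 month arrays but 1 of RT1-DMa.

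Proteases of the endosome followed. Ctss, the cathepsin that trims the invariant chain, rose by 0.49 (limma adjusted p = 0.0115), Ctsb by 0.64 (adjusted p = 0.000852) and Lgmn, legumain, by 0.49 (adjusted p = 0.0489). Ctsb ran from 27.2 to 43.1 in 3M Control and from 45.5 to 59.5 in 3M STZ without overlap. Lgmn was not called without 3M Control 2 (0.32, adjusted p = 0.169). Ctsd, with 0.36, was not called (adjusted p = 0.0972). These increases were close to the median of all tested probes, and with arrays centred on the tested probes only Cd74 of the 6 genes was still called higher, and after quantile normalization only Cd74, RT1-DMa and RT1-DMb, with Ctsb at -0.17 and Ctss at -0.01.

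Ciita, the master regulator of class II transcription, went the other way. It fell by 0.46 on the log2 scale (limma adjusted p = 0.0396), from 1.24, 1.58 and 2.57 in 3M Control to 1.00, 1.14 and 1.76 in 3M STZ, with 4 of 6 STZ arrays below all controls. It was above the bacterial 95th percentile on 5 control and 1 STZ arrays at 3 months. Without 3M Control 2 the difference was -0.33 and was not called (adjusted p = 0.123), nor was it without 3M STZ 1 (-0.44, adjusted p = 0.0628). Ciita was called lower in limma after quantile normalization (-0.80, adjusted p = 0.00524) and when arrays were centred on the tested probes (-0.83, adjusted p = 0.00892). It was also called lower after subtraction of the 5th percentile (-0.59, adjusted p = 0.0241). Nfyb and Nfyc, subunits of the factor that binds the Y box, differed by 0.26 and 0.44 and were not called (adjusted p = 0.258 and 0.0776).

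**Figure D3:**
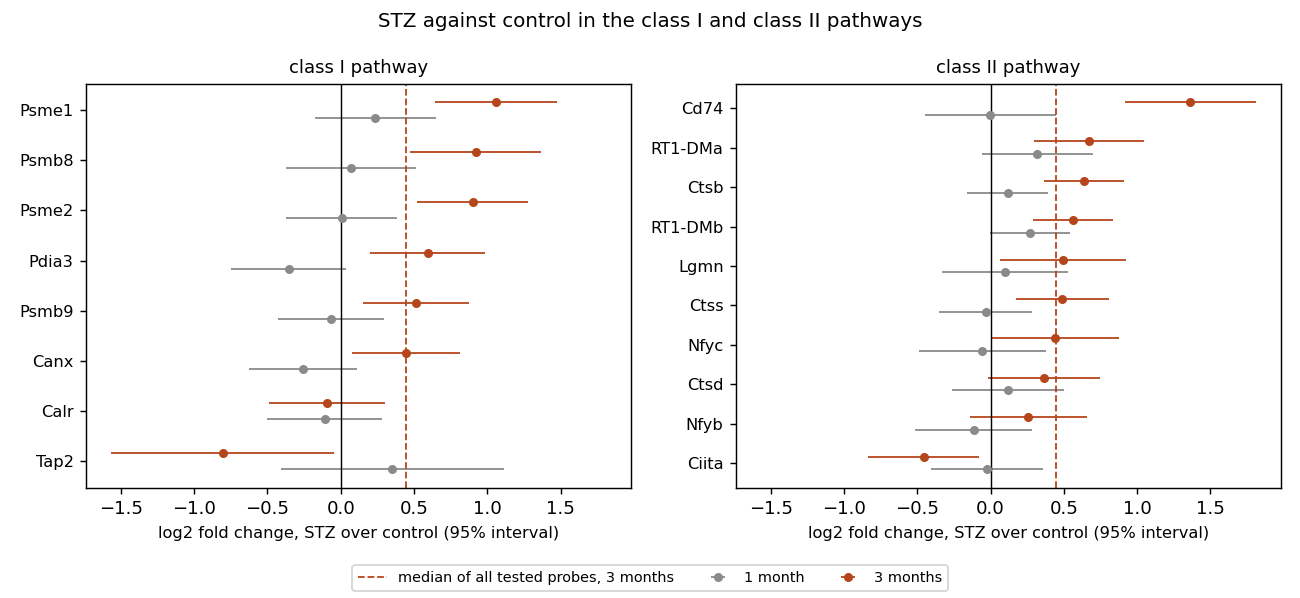
Log2 fold change, STZ over control, with its 95% interval, of the tested class I genes (left) and class II genes (right) at 1 month (grey) and 3 months (red), with the 3 month median of all tested probes dashed. Cd74, Psme1, Psmb8 and Psme2 lie to the right of that median at 3 months with intervals that do not reach it, and the intervals of Tap2 and Ciita lie below zero.

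Upstream of the pathways, the interferon signalling list had 9 of 36 genes tested, of which 4 rose at 3 months, beside 50.5% of all tested probes. The median of the list was 0.13, below the 0.44 over all tested probes. The interferon gamma receptor chain Ifngr1 rose by 0.75, and the chemokines Cxcl11 and Cxcl10, which attract T cells, by 0.72 and 0.49 (limma adjusted p = 0.00219, 0.000746 and 0.0108). Both chemokines were under the bacterial 95th percentile on all 12 arrays of 3 months. Ifit1 rose by 1.64 (adjusted p = 0.0262), but its value was 52.4 on 3M STZ 1 and its STZ median 0.903, and without that array the increase was 0.67 (adjusted p = 0.00496). Without 3M Control 2 it was not called (1.46, adjusted p = 0.0727). Irf1, Socs1, Oas1a and Mx2 differed by 0.12, -0.06, 0.13 and -0.01 and were not called. Ifng was on the array and under the limit. Centred on the tested probes, the list held no higher call, and Socs1 was called lower (-0.43, adjusted p = 0.0127).

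Of the costimulatory list 3 of 10 genes were tested. Cd80, a ligand that costimulates T cells, rose by 0.90 (limma adjusted p = 0.000699) and the adhesion molecule Icam1 by 0.64 (adjusted p = 0.00544). The mean log2 scaled intensity of Cd80 was -1.09 in 3M Control and -0.19 in 3M STZ. Both lie under the lowest bacterial 95th percentile of those arrays, 1.16 before log2. Icam1 was not called with arrays centred on the tested probes (0.27, adjusted p = 0.204). Cd28, the receptor of Cd80 on T cells, differed by 0.36 and was not called. It was called after quantile normalization (0.90, adjusted p = 0.00533) but not when centred (-0.01).

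Markers of cells that could carry or answer these molecules moved as follows at 3 months. Of the 19 microglia and macrophage markers 8 were on the array and 4 were tested. C1qb, a complement chain made by microglia, rose by 1.25 and Itgam by 0.64 (limma adjusted p = 0.000032 and 0.00733), while Aif1 and Cd14 differed by 0.21 and 0.09 and were not called. C1qb was above the bacterial 95th percentile on 1 of 6 3M Control and 6 of 6 3M STZ arrays. Itgam was above it on 0 of 6 and 3 of 6. Without 3M Control 2 Aif1 was at 0.45 and called (adjusted p = 0.0234), though it was -0.36 after quantile normalization, and Itgam was not called with arrays centred on the tested probes (0.27, adjusted p = 0.226). C1qb was 0.671, 1.03 and 1.43 in 3M Control and 1.85, 2.47 and 2.87 in 3M STZ, without overlap, like Cd74. The summed level of the 8 markers was 6.59 to 12.1 (median 6.84) in 3M Control and 8.88 to 10.6 (median 9.53) in 3M STZ, and Cx3cr1, Ptprc, P2ry12 and Lyz2 were under the limit. Their part in the increase of Cd74 was not tested.

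The T cell list had 7 of 11 markers on the array, all under the limit, and their summed level was 3.54 to 7.23 in 3M Control and 2.73 to 3.39 in 3M STZ. The group median of the bacterial probe median was also lower in 3M STZ (0.557) than in 3M Control (0.683). The part of background in these sums was not tested, and they are not read as T cell levels. No B cell marker had a probe matched, and of the dendritic cell markers 2 had a probe and 1 was tested, which was not called. Of the retinal markers 3 of 5 tested for Mueller glia, 2 of 4 for rods and 2 of 2 for endothelium were called higher, beside 50.5% of all tested probes. The endothelial calls were all lost under quantile normalization, centring, subtraction of the 5th percentile or without 3M Control 2. No rod marker was called higher under quantile normalization, where 1 was called lower, or centring. Lens markers, of a tissue that touches the retina at dissection, were called higher for 7 of 8 tested genes with a median of 1.53, and their summed level was 129.5 to 325 in 3M Control and 407 to 827 in 3M STZ. Under quantile normalization 3 of the 8 were called higher with a median of 0.55, and under centring 6 with a median of 1.16. Of the erythrocyte markers 1 of 3 was called higher, with a median of -0.29. The part of these cells in the members' values was not tested.

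The members did not rise and fall together from array to array. The likeness of 2 genes was taken as the Pearson correlation of their deviations from the group means over the 24 arrays, as a description of arrays that share scaling and background. It was 0.20 between Cd74 and Psmb8, 0.19 between Cd74 and Psmb9 and 0.20 between Psmb8 and Psmb9, against 0.80 between Psme1 and Psme2. Psmb8 and Tap2 went opposite ways, with -0.54. Tap1 and Tap2 had 0.48, which was 0.10 without 3M Control 2.

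Of 2811 other named genes tested, those most like Cd74 were Rpl6 (0.62), Lrrc15 (0.61), Vom2r40 (0.58), Flot2 (0.58) and Cyp20a1 (0.57). B2m, which was to stand for class I, has no probe here, and Psmb8, chosen after values were seen, was most like Fgf21 (0.80), Kiaa1549 (0.75), Nfyc (0.75), Csnk2a1 (0.75) and Igsf1 (0.71). No gene of the class I or class II lists but Nfyc was among these 10.

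Other processing was tried on the members. Cd74 stayed called at 3 months in all limma alternatives but 1, with log2 fold changes of 0.99 to 1.58, and Psmb8 likewise, with 0.55 to 1.15. The exception was a model that took array spread as a covariate, in which no probe of the array was called and Cd74 gave 1.48 (adjusted p = 0.273), Psmb8 0.70 (0.569) and Psmb9 0.46 (0.610). The log2 interquartile range of the arrays was 1.48 to 2.23 in 3M Control and 2.07 to 2.70 in 3M STZ, so spread moved with the group. Quantile normalization and centring on the tested probes lowered the median of all tested probes at 3 months from 0.44 to 0.16 and 0.07. Cd74 and Psmb8 stayed above that median in each. By the unequal-variance test of the study's methods, Cd74, Psmb8 and Psmb9 were all called at the unadjusted threshold used there. With Benjamini-Hochberg adjustment Cd74 was called and Psmb8 and Psmb9 were not (adjusted p = 0.0245, 0.0505 and 0.0507).

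**Figure D4:**
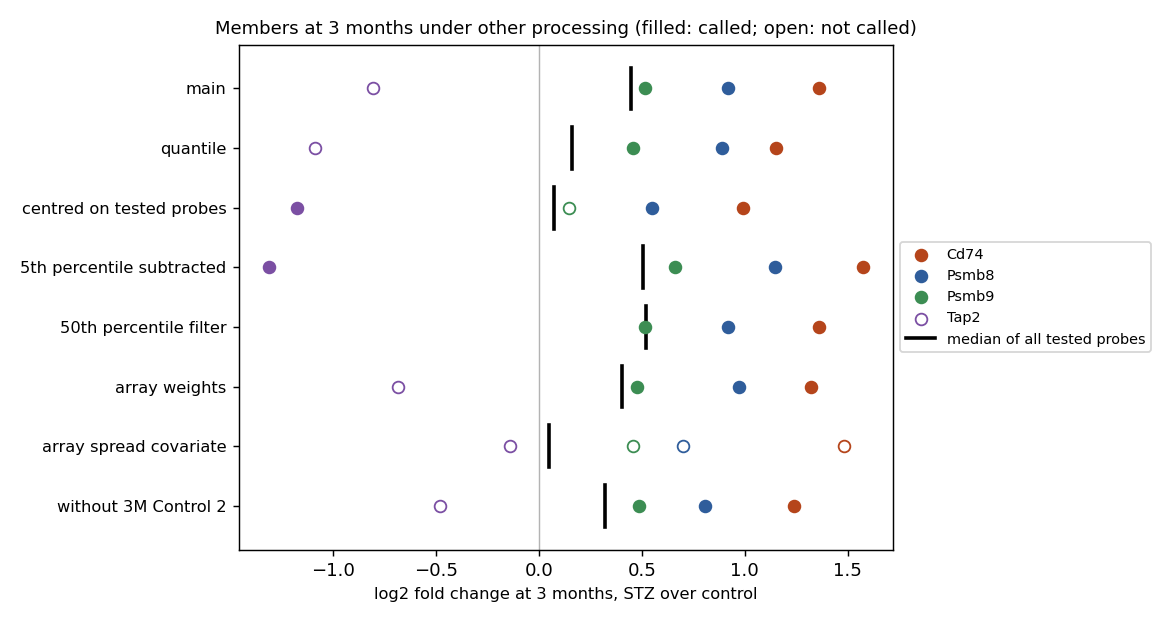
Log2 fold change at 3 months, STZ over control, of Cd74, Psmb8, Psmb9 and Tap2 (circles, filled where called) under 8 ways of processing, with a black bar at the median of all tested probes of each. Cd74 lies highest in every setting and Tap2 lowest wherever it was tested, Psmb9 lies close to the bar in the main setting and when centred, and no circle is filled under the array spread covariate.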

How the data were processed

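CodeLink rat whole genome arrays carried retinal RNA, and the 24 arrays are labelled as separate samples. Per the study's methods, CodeLink software subtracted background, excluded manufacturing defects and normalized within arrays. The values deposited by the authors are a spot intensity less local background and a normalized intensity, which is the former over a constant near the array median, both linear. Values of the series-level table were identical (0 differed by over 1e-06). The precision is limited by the number of arrays.

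Here intensity was divided by the median over the 33849 rat probes of its array, floored at 0.01 and taken to log2. Probes above the 35th percentile with at least 4 values per group were tested (22025 of 33911) with limma 3.58.1 in R 4.3.3, in 1 model of the 4 groups. In simulated data for 3 months, 181 of 200 changed probes among 22025 were recovered with 15 false calls. In the measured data 11911 of the 22025 probes were called at 3 months, so the simulation does not give their rate of false calls. Symbols and upstream sequences came from RefSeq tables of the GRCr8 assembly. A gene with several tested probes is given by its brightest one (mean log2). The text names all probes of the members, list genes called at 1 or 3 months with the extremes of each list, and the 5 genes most like Cd74 and, in place of B2m, Psmb8. Other list genes named as not called were chosen after their values were seen.

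Members and lists were chosen with earlier results of these data known. Alternatives were quantile normalization, centring on the tested probes, the deposited or series values, other filters, a floor of 0.1, subtraction of the 5th percentile, a replicate block, separate models, array weights, a variance trend, array spread as a covariate, all probes of a member, the methods' test at p under 0.01, and each array left out. A filter at the bacterial 95th percentile, and the lists under other scalings and without 3M Control 2 or 3M STZ 1, were added after seeing the data. The study lists 1 control rat fewer at 1 month than there are arrays, and all arrays were used. The values of 1 gene of the interferon signalling list are not reported here, and the list's median includes it.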

Additional observations from a re-analysis of the deposited data

Results flagged for a closer look

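Of 24 groups of 6 arrays tested over the 6 probes, 4 held an array far from the other 5, where chance gives about 1 in 20 groups. These were the second Tap2 probe on 1M Control 1 (normalized intensity 0.750), Tap1 on 3M Control 2 (2.64), the tested Tap2 probe on 3M Control 2 (3.11) and Psmb9 on 1M STZ 4 (0.450, below the rest). Without 3M Control 2 the 3 month difference was -0.10 for Tap1 and -0.48 for Tap2.

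The effect of STZ differed between 3 months and 1 month by limma's interaction for 11 genes of the pathway and microglia lists, where 14.8% of all tested probes had a more positive effect at 3 months. The count over all tested probes, in either direction, depended on the setting. It was 3414 in the main fit, 328 with arrays centred, 759 without 3M STZ 6 and 9230 without 3M Control 6. The Mueller glia and lens markers gave 2 and 6 further calls. The difference in log2 fold change was 1.36 for Cd74 and 1.36 for C1qb. In the class I list it was 0.82 for Psme1, 0.89 for Psme2 and 0.95 for Pdia3. Of the constitutive proteasome it was 0.68 for Psmc2, 0.63 for Psmc4, 0.87 for Psmc5 and 0.88 for Psmd4. Ifngr1 gave 0.97 and Cxcl11 0.64.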

How the results depend on the processing

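The class I median of 0.51 at 3 months was 0.071 with no filter on dim probes, which brought in Tap1, and 0.92 with the filter above the bacterial probes. The 3 members called at 3 months became 0 with array spread as a covariate and 1 by the methods' test with adjustment, and 3 to 4 with each array left out. The single member called by the interaction became 0 when arrays were centred or array spread was a covariate, and 2 with the filter at the 50th percentile, the replicate block, array weights or the filter above the bacterial probes. It was 1 to 3 with each array left out, 3 without 3M Control 6 and 2 without 3M STZ 4. Without other arrays it stayed 1. Tap2 at 3 months was called lower when arrays were centred (-1.18, adjusted p = 0.0407), when the 5th percentile was subtracted (-1.31, adjusted p = 0.0436), with the replicate block (-0.80, adjusted p = 0.0276) and without 1M Control 2 (adjusted p = 0.0499), 3M Control 6 (adjusted p = 0.0244) or 3M STZ 4 (adjusted p = 0.0351). The cause was not tested.

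Among the members, signs turned only for 1 month values near zero, while several list genes turned at 3 months under quantile normalization. Cd74 was 0.0028 after quantile normalization, 0.0030 when centred and 0.0011 after subtraction of the 5th percentile, and ran from -0.12 to 0.14 with each array left out, with 0.02, 0.14, 0.05, 0.07, 0.02 and 0.02 where it turned. Psmb8 ran from -0.023 to 0.18 and was -0.00022 without 1M STZ 6. Psmb9 was 0.037 with array weights and ran from -0.13 to 0.12, with 0.0022 without 1M Control 5. Over all tested probes 11911 were called at 3 months, 6948 after quantile normalization, 5554 when centred, 0 with array spread as a covariate, 3722 by the methods' test and 1921 of those with adjustment. At 1 month array weights gave 360 calls.

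Same-numbered STZ and control arrays had correlations of -0.24 to 0.25, not all above 0.1, so the numbers were not taken to pair the rats. With the replicate block 11622 probes were called at 3 months. Signal over background limits, among others, Tap1, Tap2, Psmb9, RT1-DMa, RT1-DMb, Canx, Cxcl10, Cxcl11, Ifit1 and Itgam. These were at or under the bacterial 95th percentile on most arrays of 3 months. The 3 month group means of Cd80 also lay under the lowest 3 month value of that percentile.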
